A study of Mus musculus with 686 samples.

Results

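Leucine, serine and selenocysteine tRNAs are the tRNAs of mouse cytosol with a long variable arm. They were taken as every row of the deposited tRNA table whose name carries the isotype Leu, Ser or SeC. The rule gave 49 of 408 tRNA rows, with 26 Leu rows of 5 anticodons, 22 Ser rows of 5 anticodons and 1 SeC row, out of 50431 features in 7 classes of small RNA. Levels are given as the percent of the tRNA counts of a library that fell on these rows (share) and as per-million counts relative to the total of the 7 classes (rpmm).

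Small RNA of 13 tissues of female BALB/cAnNTac mice was sequenced in 686 libraries. The arms were spaceflight (FL), habitat ground controls (HGC) housed in flight-like cages, and vivarium ground controls (VGC) in standard cages, each with mice of 3 and 8 months. In the live animal return (LAR, 348 libraries) the flight mice came back to Earth, were killed some days after splashdown, and their tissues were snap frozen. In the termination protocol (TERM, 338 libraries) mice were killed on orbit, or on the ground for controls, and carcasses were frozen whole and dissected later after thawing, except that spleen was placed fresh in a preservative. By the study's methods, carcasses frozen on orbit did not snap freeze, in contrast to material placed in liquid nitrogen on Earth, and ground control carcasses went into freezers, while a summary chart of the study assigns snap freezing to TERM and slow freezing to LAR. The methods were followed here. The food bars of FL and HGC carried mold, and the return flight was delayed. Mice of the 3 arms share numbers but are different animals, all of 1 inbred strain and 1 sex. Most groups of tissue, arm and protocol held 8 to 10 libraries. Brain of LAR held 4 in each arm, heart and spleen of LAR 6 in FL and HGC, brain of TERM 4, 5 and 4, and pancreas of TERM 4 FL, 5 HGC and 2 VGC. Brain of LAR and pancreas of TERM came from mice of 3 months alone. LAR and TERM differ in duration, landing, time of death and freezing, and these cannot be told apart.

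Libraries held 9147379 to 428254667 counts of the 7 classes with a median of 54520566, and the 49 rows together received 11141 to 3110384 counts with a median of 101377. The reads carried no molecular identifiers, so precision from counting covers counting error only. The labels of the tissues were compared with 730 miRNAs. Most tissues were highest for at least 1 of their defining miRNAs, such as liver for miR-122-5p, brain for miR-124-3p and pancreas for miR-217-5p. Kidney ranked 1 for miR-10a-5p but 2, after liver, for miR-192-5p and miR-194-5p. Heart ranked 2 for miR-133a-3p, diaphragm 2 for miR-1a-3p and GAT 2 for miR-193b-3p. SCAT ranked 6 of 13 for miR-196a-5p and MAT 5 of 13 for miR-193b-3p, both markers of fat. In 166 of 686 libraries the miRNA profile was closest to another tissue, including 46 of mesenteric fat (MAT) and 0 of brain. In 11 of the 44 pools numbered in the study's sample list more than 1 in 3 libraries stood apart in this way, and the main calls are also given without the 168 libraries of these pools. BAT, GAT and SCAT stand for brown, gonadal and subcutaneous fat.

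A tRNA carries an amino acid on its acceptor end and reads the codon with its anticodon. Most tRNAs have a short variable loop between the anticodon arm and the T arm. In Leu, Ser and SeC tRNAs this loop is extended to a stem of its own, and in serine tRNAs seryl-tRNA synthetase binds this arm rather than the anticodon. The same enzyme charges tRNA-SeC with serine, which is then converted to selenocysteine and inserted at recoded UGA codons of selenoproteins. Small RNA libraries hold mostly fragments of tRNAs, since full-length tRNAs are modified and folded, so a row measures fragments and not the pool of intact tRNA.

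The counts of many rows moved as one. Gene copies with the same number carried identical counts in every library, so that the 49 rows held 33 distinct count profiles, 18 of Leu, 14 of Ser and 1 of SeC. The count of tRNA-Ser-AGA-1-1 lay within 10% of that of tRNA-Ser-AGA-2-1 in 598 of 686 libraries, and that of tRNA-Ser-TGA-2-1 in 591. tRNA-Leu-AAG-1-1 and tRNA-Leu-TAG-1-1, which have different anticodons, lay within 10% of each other in 487. tRNA-Leu-CAG-1-1 and tRNA-Leu-CAG-2-1 did so in all 686, and tRNA-Ser-GCT-1-1 and tRNA-Ser-GCT-4-1 in 685. Rows of these pairs cannot be read as separate measurements, and summed rows may count a shared read more than once.

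The long-arm tRNAs were a small part of the tRNA counts, 0.565% over all libraries, although they are 49 of the 408 rows. Per library the share had a median of 0.657%, and of 1.50% when rows with identical counts, of all tRNAs, were counted once. Leu rows held 0.343%, Ser rows 0.211% and the SeC row 0.0108%. Within Leu, anticodon CAG took 64.4% of the counts, AAG 14.7%, CAA 10.0%, TAG 9.88% and TAA 1.02%. Within Ser, AGA took 61.0%, GCT 20.1%, TGA 17.9%, CGA 0.998% and GGA 0.0317%. The range among rows was wide. tRNA-Leu-CAG-1-1 held 431 to 132264 counts per library, while tRNA-Ser-AGA-3-1 had a median of 1 count and none in 223 libraries. Most tRNA counts lay elsewhere. Gly and Glu rows (46) held a median of 64.9% of the tRNA counts of LAR and 69.6% of TERM, Val, Lys, His and Asp rows (79) 26.7% and 23.1%, and Ala and Cys rows (88) 2.10% and 2.49%.

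In LAR the share of long-arm tRNAs was highest in brain and lowest in the fat depots GAT and SCAT. The median was 3.67% in brain (lowest library 0.391, highest 6.35, n = 12), 2.15% in pancreas (n = 28), 2.10% in diaphragm (n = 30), 1.38% in lung, 1.26% in liver, 1.22% in spleen, 1.20% in kidney and 1.19% in heart. It fell to 0.857% in MAT, 0.848% in thymus, 0.392% in BAT, 0.246% in GAT and 0.228% in SCAT, a span of 16.1 times. Of the 12 neighbouring pairs in this order, 3 differed by 2-sided permutation tests with Benjamini-Hochberg adjustment, brain and pancreas (adjusted p = 0.0183), diaphragm and lung (0.0300) and thymus and BAT (0.00564). Without the 11 pools the pairs that differed were lung and liver, thymus and BAT, and BAT and GAT. With identical rows counted once the medians were higher, 9.36% in brain and 0.627% in GAT, diaphragm (4.83%) came second and GAT last. The pairs that then differed were others, brain and diaphragm (adjusted p = 0.0237), spleen and thymus (0.0222) and MAT and BAT (0.0204, permutation tests), so which neighbours differ depends on this choice. Tissues of an arm came from the same mice, which these tests left out of account. Within mice (sign-flip permutation tests), diaphragm and lung and thymus and BAT still differed, while brain and pancreas did not (9 mice, exact, adjusted p = 0.487).

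In TERM the order was different, with pancreas far above the rest. Pancreas had a median of 4.62% (0.180 to 8.89, n = 11), spleen 1.44%, diaphragm 0.931%, heart 0.899%, thymus 0.647%, brain 0.624%, lung 0.543%, kidney 0.468%, MAT 0.408%, liver 0.405%, BAT 0.379%, SCAT 0.343% and GAT 0.223%. Pancreas differed from spleen (adjusted p = 0.00012, permutation test), and SCAT from GAT (0.0106), and only the first pair differed without the 11 pools. Both pairs also differed with identical rows counted once (6.34% in pancreas and 2.95% in spleen, 0.749% in SCAT and 0.541% in GAT). Within mice, pancreas and spleen did not pass (10 mice, exact sign-flip permutation test, adjusted p = 0.134), SCAT and GAT did (0.0275), and heart and thymus were added (0.0365). The share of a library moved against how much of the library was tRNA. Across libraries Spearman's rho between them was -0.769 in LAR (n = 348) and -0.739 in TERM (n = 338), where the tRNA count is the denominator of one and the numerator of the other.

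**Figure D1:**
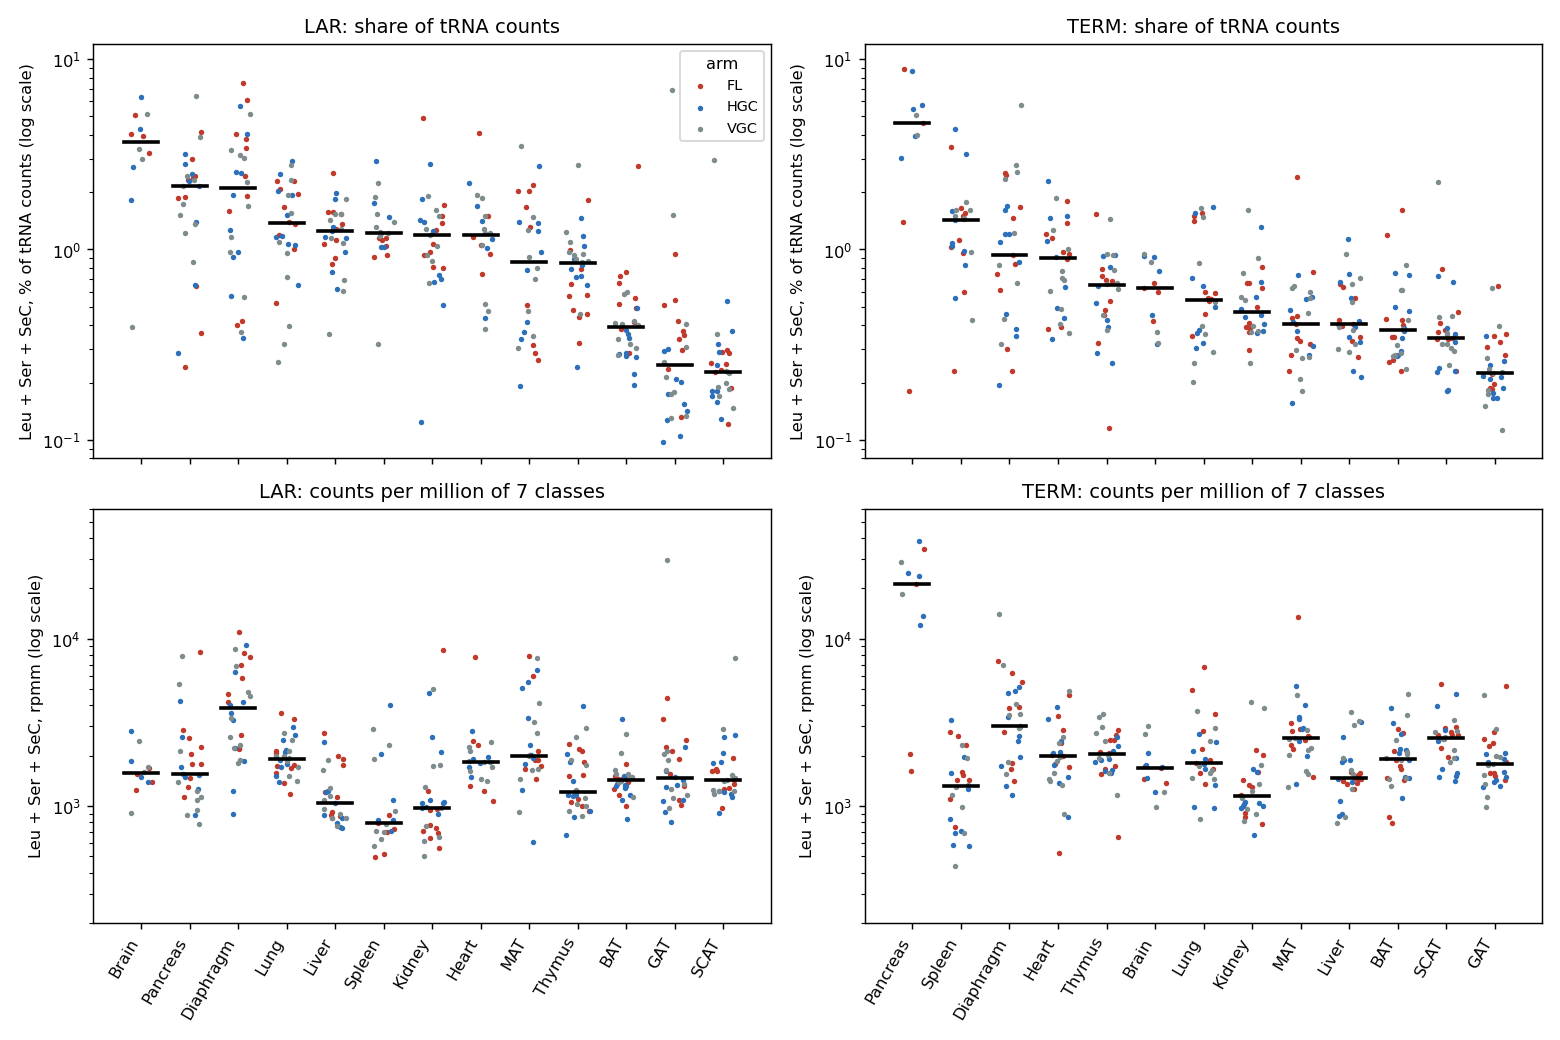
Share of tRNA counts (upper row) and rpmm (lower row, both on log scales) of the Leu, Ser and SeC rows in each library, by tissue in the order of the median share, for LAR (left) and TERM (right). Points are libraries coloured by arm and bars are medians. Pancreas of TERM stands at a median of 4.62% and 21343 rpmm, above every other tissue on both scales.

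On the rpmm scale the tissues were closer together in LAR. Medians ran from 788 rpmm in spleen to 3831 rpmm in diaphragm, a span of 4.86 times, and no neighbouring pair differed. In TERM they ran from 1143 rpmm in kidney to 21343 rpmm in pancreas, and pancreas and diaphragm were the 1 neighbouring pair that differed (adjusted p = 0.00012, permutation test), though not within mice (10 mice, exact sign-flip permutation test, adjusted p = 0.0586). Brain, first by share in LAR, had 1577 rpmm there, since tRNA was 4.90% of its counts (median), against 70.5% in GAT.

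The medians of the serine rows spread over tissues more widely than those of the leucine rows on the rpmm scale, and not by share in LAR, both as a description with no test. In LAR the median of the Ser rows spanned 14.1 times, from 151 rpmm in spleen to 2133 rpmm in diaphragm, and that of the Leu rows 2.83 times, from 632 rpmm in spleen to 1785 rpmm in diaphragm. By share in LAR the Ser rows spanned 16.1 times, from 0.0741% in GAT to 1.19% in diaphragm, and the Leu rows 20.2 times, from 0.135% in SCAT to 2.74% in brain. Among the long-arm counts of LAR, diaphragm, lung and heart had the highest percent of serine by median. Ser rows made 56.3% of the long-arm counts in diaphragm of LAR, 51.9% in lung and 48.6% in heart (medians), but 19.9% in spleen. They outnumbered the others in 21 of 30 diaphragm libraries, 20 of 30 lung libraries and 9 of 22 heart libraries of LAR. In SCAT of TERM they made 10.4%. In LAR the SeC row had its highest median in MAT (41.2 rpmm), followed by kidney (34.9 rpmm) and liver (34.1 rpmm), and its lowest in spleen (10.8 rpmm) and brain (13.9 rpmm). In MAT of LAR the miRNA profile was closest to another tissue in 8 of 9 FL, 8 of 10 HGC and 8 of 9 VGC libraries, where 3, 2 and 0 libraries were in the 11 pools. Kidney and liver are rich in selenoproteins. In kidney of LAR, HGC replicate 16 held 1616 rpmm of SeC and VGC replicate 4 held 980 rpmm, against that median of 34.9 rpmm. Both were libraries with a high tRNA content (67.9% and 54.1%), and VGC replicate 4 had a miRNA profile closest to liver.

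Pancreas of TERM held the highest serine levels of the series. By library, the Ser rows stood at 384, 15399, 631 and 25183 rpmm in FL, at 7926, 29335, 2782, 17384 and 18265 rpmm in HGC, and at 12550 and 18437 rpmm in VGC. FL replicates 1 and 3 were the low libraries, replicate 1 with a miRNA profile of another tissue and 89.5% tRNA, replicate 3 in one of the 11 pools. The other 9 libraries had a median of 17384 rpmm of Ser and 7011 rpmm of Leu. In pancreas of LAR the median was 368 rpmm of Ser (154 to 4042, n = 28) and 1113 rpmm of Leu. The row tRNA-Ser-AGA-1-1 had a median of 1640 rpmm in pancreas of TERM against 28.1 rpmm in LAR, and tRNA-Ser-TGA-2-1, whose counts lay close to it, 1640 rpmm against 28.2 rpmm. Ser-AGA took 72.9% of the Ser counts in TERM pancreas and Ser-GCT 6.04%, where LAR pancreas had 51.5% and 31.0%. Gly and Glu rows, the bulk of tRNA elsewhere, were at a median of 36.1% of the tRNA counts in TERM pancreas and between 55.7% and 77.9% in the other tissues of TERM.

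**Figure D2:**
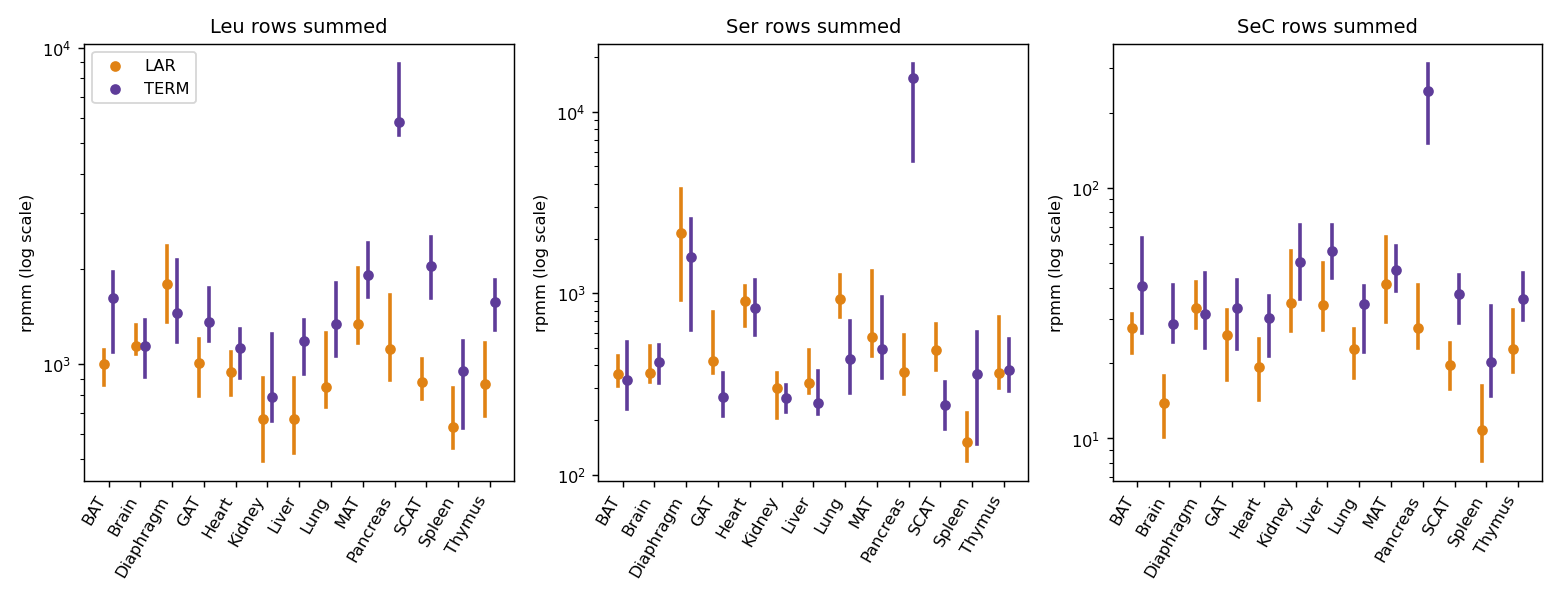
Summed Leu, Ser and SeC rows in rpmm (log scale) by tissue; dots are medians over the libraries of LAR (orange) and TERM (purple) and bars span the interquartile range. TERM pancreas stands apart in each panel, most in Ser with 15399 rpmm against 368 rpmm in LAR.

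The use of anticodons differed between tissues, and these levels are a description without a test. The anticodon TAA of leucine reads the UUA codon. Leu-TAA made 6.92% of the Leu counts in brain of LAR (2.37 to 9.86, n = 12) and 7.49% in brain of TERM (2.29 to 10.4, n = 13), and no other tissue had a median above 2.52%. The highest library elsewhere was one of spleen of TERM at 4.87%. tRNA-Leu-TAA-2-1 carried most of this, with 71.8 rpmm in brain of LAR and 82.0 rpmm in TERM, against 4.29 rpmm (SCAT) to 15.3 rpmm (lung) in the other tissues of LAR.

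Leu-AAG was high in striated muscle. Its median was 32.1% of the Leu counts in diaphragm of LAR and 33.3% in TERM, and 27.8% and 26.8% in heart, against 5.19% in SCAT of TERM and 8.01% in BAT of TERM. Leu-CAG was the leading leucine anticodon by median in each tissue and reached 81.2% in SCAT of TERM. Ser-GCT, which reads the AGU and AGC codons, was highest in GAT and SCAT. It held 49.1% and 48.6% of the Ser counts in GAT of LAR and TERM and 48.3% and 48.3% in SCAT, 30.3% and 40.6% in MAT and 36.1% and 36.9% in BAT, against 13.7% in lung of LAR. Ser-CGA made 5.81% in brain of LAR and at most 2.97% in the other tissues of LAR.

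**Figure D3:**
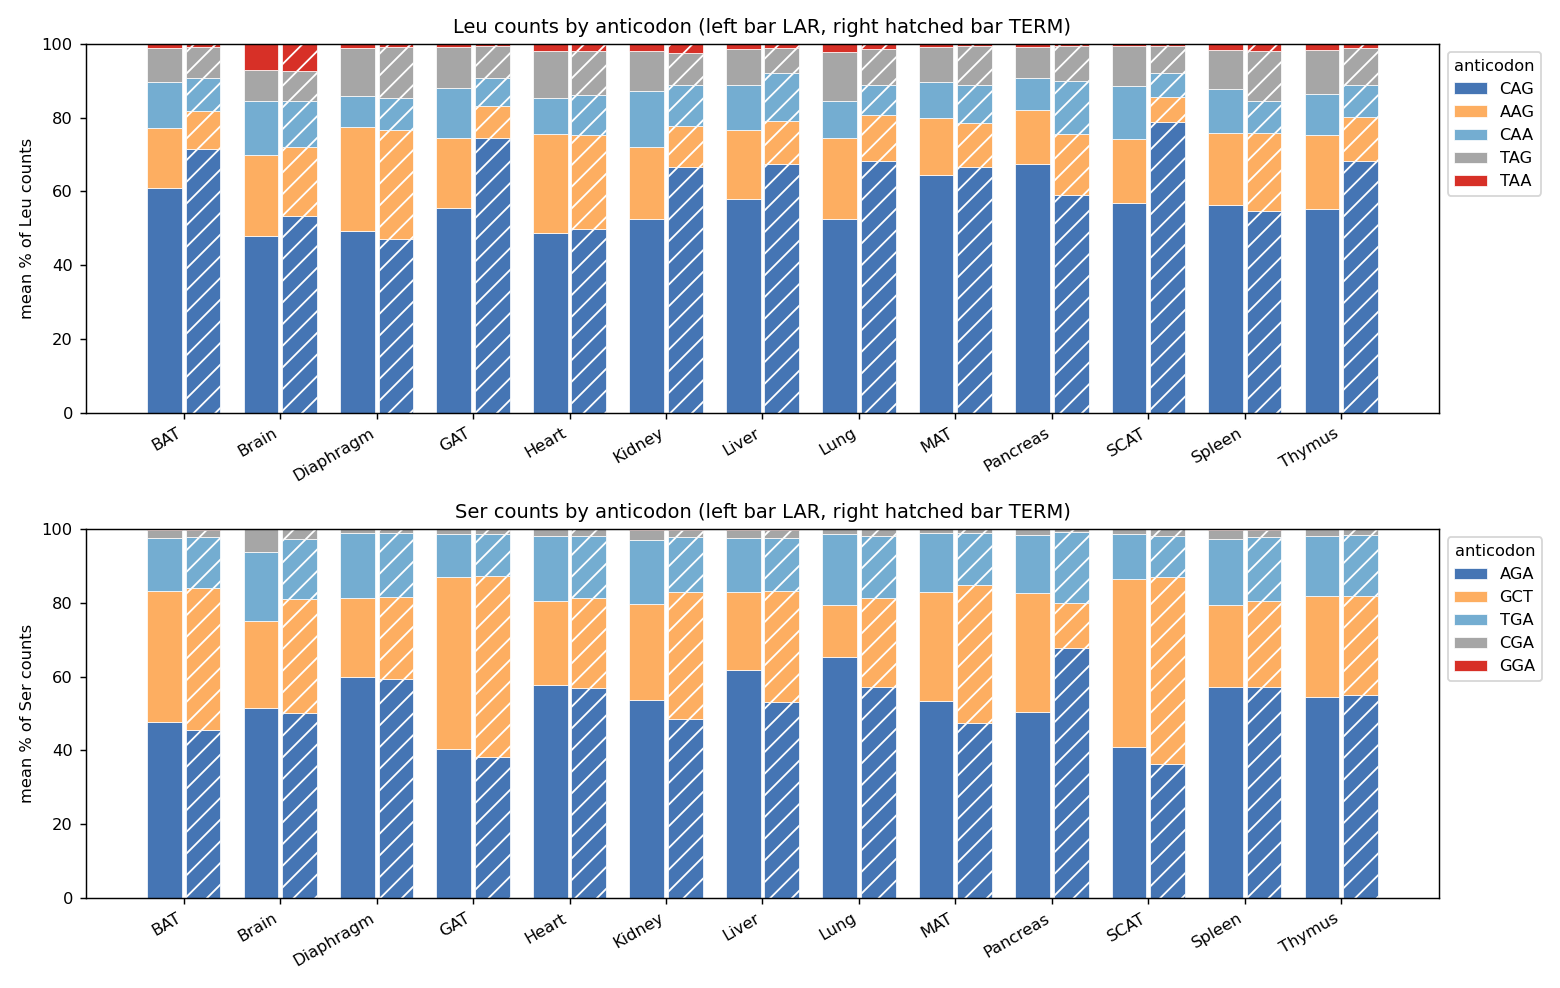
Mean percent of the Leu counts (upper panel) and of the Ser counts (lower panel) on each anticodon, by tissue, for LAR (left bar) and TERM (right, hatched bar). Brain has the widest red band, Leu-TAA at a mean of 7.02% and 7.21%, and GAT and SCAT the widest band of Ser-GCT.

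FL was compared with HGC, which were housed in the same type of habitat on the ground. In LAR the share of long-arm tRNAs was higher in FL in 2 of 13 tissues, BAT and GAT. In BAT the lowest, median and highest libraries were 0.287, 0.536 and 2.73% in FL and 0.194, 0.285 and 0.495% in HGC. The mean was 0.753% ± 0.710 (SD, n = 10) against 0.311% ± 0.0865 (n = 10), with an adjusted p of 0.00702 (2-sided permutation test). Without FL replicate 2, the library at 2.73%, whose miRNA profile was closest to spleen, the difference in means fell from 0.441 to 0.222 percentage points and the adjusted p was 0.00943 (exact permutation test). In GAT the libraries were 0.132, 0.364 and 0.950% in FL and 0.0969, 0.164 and 0.300% in HGC, with means of 0.416% ± 0.223 and 0.180% ± 0.0713 (n = 10 each, adjusted p = 0.00702, permutation test). The groups overlapped in both tissues. The VGC libraries of GAT had a median of 0.235%.

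By isotype, the Leu share passed the test in BAT, and both the Leu and the Ser share passed it in GAT. In BAT the Leu share was 0.536% ± 0.506 in FL and 0.206% ± 0.0407 in HGC (adjusted p = 0.00273, permutation test, n = 10 each), and the Ser share gave an adjusted p of 0.291. In GAT the Ser share was 0.183% ± 0.144 against 0.0548% ± 0.0246 (adjusted p = 0.00572) and the Leu share 0.225% ± 0.0916 against 0.121% ± 0.0474 (adjusted p = 0.0298, permutation tests, n = 10 each). The tRNA content of the libraries moved the other way. It was 24.9% ± 9.13 in FL and 46.4% ± 11.5 in HGC in BAT (adjusted p = 0.00299), and 55.3% ± 16.4 against 76.9% ± 11.1 in GAT (adjusted p = 0.0166, permutation tests, n = 10 each), and without the 11 pools it differed by -20.3 percentage points in BAT and -22.8 in GAT (adjusted p = 0.0182 each, exact permutation tests). On the rpmm scale the long-arm rows of BAT differed by 0.02 on the log2(rpmm + 1) scale, and those of GAT by 0.60 (adjusted p = 0.211, permutation test). Its part in the shares was not tested. Without the 11 pools the share in BAT was called (adjusted p = 0.0156, exact permutation test) and that in GAT was not (0.069), and with the plate number of the sample list as a term neither was called (0.683 and 0.416).

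**Figure D4:**
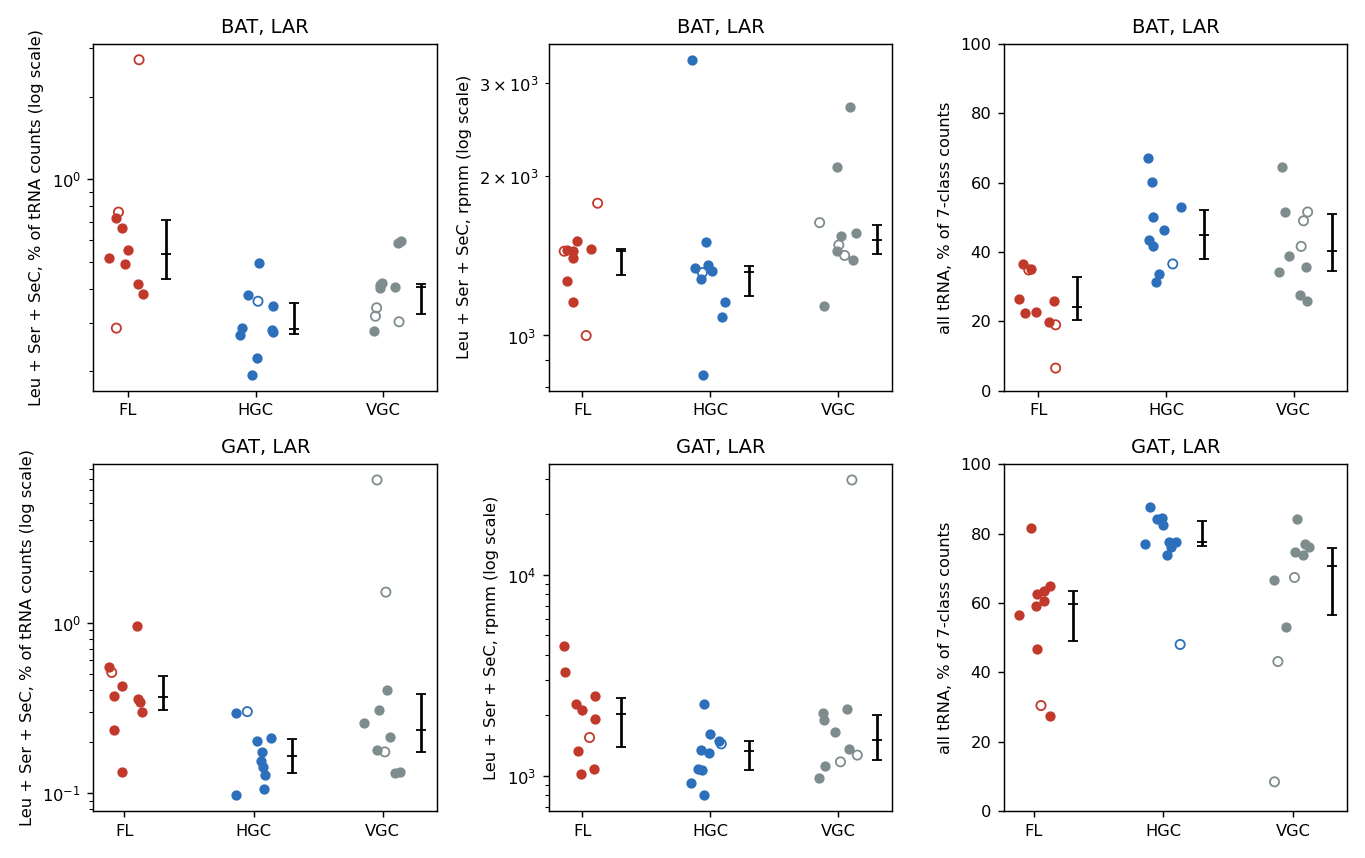
BAT (upper row) and GAT (lower row) of LAR by arm, with the share of tRNA counts and the rpmm of the long-arm rows (log scales) and the percent of the library that is tRNA. Points are libraries, open where the miRNA profile was closest to another tissue, and bars give the median with the interquartile range. In both tissues the FL median sits above that of HGC by share and below it by tRNA content, and the libraries of the arms overlap on every scale.

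Row by row, edgeR's quasi-likelihood test on all tRNA rows called 14 member rows in FL vs. HGC of LAR with Benjamini-Hochberg adjustment over all rows of a tissue. Over the 13 tissues it called 4.33% of all tRNA rows tested. In GAT 8 of 49 members were higher in FL, beside 18.9% of all 407 rows called. These were the 4 Leu-TAA rows, tRNA-Leu-CAG-3-1, tRNA-Ser-AGA-3-1, tRNA-Ser-CGA-3-1 and tRNA-Ser-GGA-1-1, none of them the leading row of Leu or Ser. tRNA-Ser-AGA-3-1 reached 5 counts in 1 FL, 0 HGC and 2 VGC libraries, so it passed the count minimum through FL and VGC alone. The other 7 rows reached 5 counts in 6 to 10 HGC libraries. For tRNA-Leu-TAA-3-1 the lowest, median and highest libraries were 0.062, 0.593 and 2.66 rpmm in FL and 0.050, 0.129 and 0.492 rpmm in HGC (log2 fold change 2.44 ± 0.56 SE, adjusted p = 0.013). For tRNA-Ser-GGA-1-1, which reads UCC codons, they were 0.195, 0.337 and 0.797 rpmm against 0.050, 0.139 and 0.219 rpmm (log2 fold change 1.43 ± 0.35 SE, adjusted p = 0.013). FL was higher in the median of both rows and the ranges overlapped. The median log2 fold change of the 49 members in GAT was 0.56 and that of all rows 0.23. Leaving out single libraries gave 5 to 22 members, 22 without VGC replicate 1, and scaling to tRNA counts with TMM gave 11, all higher in FL. The share of all rows of GAT called in these fits is not given, so these counts do not set the members apart from other tRNA rows.

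In BAT 6 of 49 members were lower in FL, beside 37.4% of all 404 rows called, 3.71% higher and 33.7% lower. All 6 were Ser-GCT rows with log2 fold changes between -1.02 and -0.95, and 3 of them hold identical counts. The counts of tRNA-Ser-GCT-1-1 and tRNA-Ser-GCT-4-1 lay within 10% of each other in 685 of 686 libraries, so the 6 calls are not separate measurements. For tRNA-Ser-GCT-3-1 the libraries were 6.87, 19.6 and 35.5 rpmm in FL and 12.1, 22.3 and 189 rpmm in HGC. HGC replicate 16 was the highest library, and the groups overlapped. Without it no member was lower and 1 was higher. No member was lower either without FL replicate 2, 5, 11, 12 or 14, 2 were lower without FL replicate 4, and 1 was lower without FL replicate 1, 13 or 16, HGC replicate 11 or VGC replicate 1, 2, 3, 4, 5, 11, 12 or 13. None was lower with age or plate as a term, and with TMM scaling, which moved the median of all rows from -0.37 to 0.28 (log2), 23 members were called higher in FL and 0 lower, beside 120 rows higher and 54 lower of all 404.

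In the other 11 tissues of LAR no member was called by edgeR, and DESeq2 called 7 members of liver higher in FL, beside 3.47% of all rows there. Spleen came closest, with 43 of 48 tested members at an unadjusted p under 0.05, all rows called 0%, and a smallest adjusted p of 0.0645. The median log2 fold change of the members was -1.21 and that of all rows -1.01, and DESeq2 called no member of spleen. With the plate as a term edgeR called 37 members lower in FL there, beside 217 of 405 rows. Without HGC replicate 17, 8 or 5 or VGC replicate 16 it called 39, 32, 17 or 21 members lower, and none without any other single library. Counts over all rows are not given for runs that leave out 1 library, in this or other tissues. Such member counts cannot be set against the other tRNA rows. On the log2(rpmm + 1) scale the summed rows of spleen were 9.40 ± 0.334 in FL and 10.3 ± 0.976 in HGC (n = 6 each, exact permutation p = 0.0325, adjusted p = 0.211), a difference of -0.92 that was -0.59 without HGC replicate 13. In kidney the difference was -0.48 and not called. Without FL replicate 3, which had a diaphragm profile, it was -0.83 (adjusted p = 0.042, exact permutation test) with 17 members lower, and without the 11 pools -0.87 (exact permutation test, adjusted p = 0.0369) with 30 of 48 members lower, beside 186 of 403 rows. By anticodon share, 0 of 130 tests of tissue and anticodon were called in LAR, and 18 had an unadjusted p under 0.05.

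In TERM no tissue was called by share, and none by rpmm, where GAT had an unadjusted p of 0.0450 (permutation test). edgeR called 2 members, tRNA-Leu-TAA-3-1 and tRNA-Leu-TAA-4-1 in lung, where it called 8.91% of all rows, against 1.2% over the 13 tissues. tRNA-Leu-TAA-3-1 stood at 0.149, 0.514 and 2.27 rpmm in FL (n = 10) and 0.151, 0.228 and 0.483 rpmm in HGC (n = 9), with a log2 fold change of 1.50 ± 0.49 SE and an adjusted edgeR p of 0.0455. The groups overlapped, leaving out single libraries gave 0 to 3 members, and no member was called without the 11 pools or under Wilcoxon's rank-sum test. With plate as a term edgeR called 23 members, all lower in FL (140 of 5270 rows), and DESeq2 called 3 higher and 2 lower (90 of 5270). By anticodon share 1 of 130 tests was called. Leu-TAA made 1.13% ± 0.345 of the Leu counts in spleen of FL (n = 9) and 2.30% ± 0.518 of HGC (exact permutation test, adjusted p = 0.00535). It was not called without the 11 pools.

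VGC separates flight with housing (FL vs. VGC) from housing alone (HGC vs. VGC), and both contrasts share arms with FL vs. HGC. No tissue was called by share in either contrast, with BAT of LAR at an unadjusted p of 0.0288 for FL and 0.0459 for HGC against VGC (permutation tests). In spleen of LAR the share without the 11 pools was 1.05% ± 0.107 in FL and 1.42% ± 0.263 in VGC (n = 6 each, exact permutation test, adjusted p = 0.0281). edgeR called 0 members in FL vs. VGC, 55 of 635 member tests of LAR and 51 of TERM having an unadjusted p under 0.05, beside 0.266% and 0.854% of all rows called. DESeq2 called 22 and 12 members, beside 4.71% and 1.35% of all rows. With plate as a term edgeR called 26 members lower in FL in LAR (246 of 5260 rows) and 0 in TERM (6 of 5270). The sets without the 11 pools gave 9 members higher in FL in LAR (120 of 5257 rows) and 10 higher in TERM (92 of 5261), and TMM scaling gave 2 higher in LAR (16 of 5260) and 10 lower in TERM (38 of 5270). In HGC vs. VGC of LAR 10 members of GAT were lower in HGC, and these were 10 of the 10 rows called there (2.46% of all rows). All rested on VGC replicate 1, whose miRNA profile was closest to pancreas and which held 2324 rpmm of tRNA-Ser-AGA-1-1 where the median of VGC was 22.7 rpmm, and without it none was called. None was called either without the 11 pools, with plate or with age as a term. Over both contrasts against VGC, no run that left out 1 library gave fewer than 9 members. The run without VGC replicate 1 of GAT therefore called members in FL vs. VGC, where the full set called none. In HGC vs. VGC of TERM edgeR called 0 members, and 25 had an unadjusted p under 0.05. No interaction of arm with age or protocol passed adjustment among 50 tests (smallest adjusted p = 0.160, 2 with an unadjusted p under 0.05).

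LAR and TERM were compared with the 3 arms of a tissue pooled. These tests held more libraries a side than those between arms, so the numbers of tissues called cannot be compared. The share was higher in LAR in 6 tissues and lower in pancreas. In brain it was 3.62% ± 1.59 (0.391 to 6.35, n = 12) against 0.630% ± 0.238 (0.317 to 0.944, n = 13). VGC replicate 5 of LAR, at 0.391% with 40.7% tRNA, was the 1 LAR library within the TERM range, and the remaining 11 stood above it. In liver it was 1.25% ± 0.461 against 0.483% ± 0.216, in kidney 1.30% ± 0.868 against 0.570% ± 0.301, in lung 1.47% ± 0.734 against 0.733% ± 0.498, in diaphragm 2.47% ± 1.86 against 1.30% ± 1.15 and in MAT 1.08% ± 0.834 against 0.480% ± 0.403. In pancreas it was 2.09% ± 1.32 (n = 28) against 4.64% ± 2.66 (n = 11). The adjusted p-values of these 7 tissues ran from 6.5e-05 to 0.00953 (permutation tests), and the groups overlapped in each. The 7 calls held without the 11 pools, which added SCAT. The median tRNA content was lower in LAR in every tissue, and permutation tests called it lower in 11 of 13. Medians were 4.90% against 27.7% in brain and 8.91% against 36.3% in liver, but 68.0% against 74.0% in SCAT and 6.66% against 7.88% in spleen.

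By isotype, the direction depended on the scale. By share, the Leu rows were higher in LAR in brain (2.65% against 0.442%), liver (0.796% against 0.342%), kidney, MAT and diaphragm and lower in SCAT (0.189% against 0.338%). The Ser share was higher in LAR in 9 tissues, such as lung (0.787% against 0.211%), and lower in pancreas (0.595% against 3.07%). The SeC share was higher in LAR in brain (0.0304% against 0.0125%), liver (0.0418% against 0.0177%), kidney and MAT and lower in spleen (0.0178% against 0.0264%). These are means, and their adjusted p-values ran from 4.3e-05 to 0.0328 (permutation tests).

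On the rpmm scale, leucine and serine were called in opposite directions in GAT, lung and SCAT and in the same direction in pancreas. The Leu rows were lower in LAR in 7 tissues, by 0.51 (GAT) to 2.04 (pancreas) on the log2(rpmm + 1) scale. The Ser rows were higher in LAR by 0.97 in GAT, 1.01 in lung and 0.96 in SCAT, and lower by 4.02 in pancreas (adjusted p 0.000130 to 0.000325, permutation tests). Without the 11 pools these 4 Ser calls held, with differences of 0.92, 1.24, 1.00 and -4.34. Ser rows made 35.2% of the long-arm counts in SCAT of LAR and 10.4% in TERM, 33.6% and 15.7% in GAT, and 51.9% and 22.6% in lung (medians, adjusted p = 2.6e-05 each, permutation tests). The SeC row was lower in LAR in 9 tissues, among them brain with 13.9 against 28.6 rpmm and liver with 34.1 against 55.9 rpmm (medians), where its share was higher. Without the 11 pools the Leu rows were lower in 8 tissues, heart added, and the SeC row in 8, lung lost. The part of the tRNA content in these shares was not tested.

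edgeR, with arm and age as terms, called 249 member tests of 636, beside 39.4% of all tRNA tests over the 13 tissues. It called 44 of 49 members in GAT (72% of all rows), 41 in pancreas (61.3%), 35 of 48 in kidney (49.4%), 33 in SCAT (57.7%), 25 in lung (38.9%), 19 in liver (42.8%), 17 in MAT (57.7%), 16 in BAT (34.6%), 12 in thymus (26.3%) and 7 in brain (49.6%). In diaphragm, heart and spleen it called 0, with 1, 5 and 5 members at an unadjusted p under 0.05, beside 11.5%, 8.91% and 2.22% of all rows called. The members' share lay above that of all rows in GAT, pancreas, kidney, SCAT and lung. It lay below in brain, MAT, liver, BAT, thymus, diaphragm, heart and spleen, a description with no test of the difference.

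Directions differed between anticodons of 1 isotype. Leu-CAG was mostly lower in LAR, with 72 calls lower and 3 higher over 130 tests. All tRNA rows gave 2080 calls in either direction over 5274 tests. The 10 Leu-CAG rows hold 4 distinct count profiles, so their calls are not separate measurements. In SCAT the median log2 fold change of the Leu-CAG rows was -1.48, in thymus -1.11, in lung -1.09, in BAT -0.94, in GAT and liver -0.88 and in kidney -0.80. With TMM scaling each of these was still negative, from -1.73 to -0.44, but in brain the median rose from 0.11 to 1.17 and 10 rows were higher, and in pancreas it went from -1.95 to -0.31 with no row lower. tRNA-Leu-CAG-1-1 had a median of 57.6 rpmm in SCAT of LAR and 193 rpmm in TERM. The serine anticodons AGA and TGA, which read UCU and UCA codons, were higher in LAR in GAT, SCAT, kidney, lung and MAT. The medians of Ser-AGA were 1.60 in GAT, 1.08 in SCAT, 1.01 in kidney, 0.95 in lung and 0.87 in MAT, with 8 of 8 rows called in GAT, SCAT and lung, 7 of 7 in kidney and 7 of 8 in MAT, and they stayed above 0 with TMM (0.77 to 1.44). Without the 11 pools the median in GAT was 0.70 with 8 rows higher, and in kidney 0.66 with 1. tRNA-Ser-AGA-1-1 stood at 88.9 rpmm in lung of LAR and 30.5 rpmm in TERM. In pancreas Ser-AGA was at -4.65 with 7 rows lower and Ser-TGA at -4.58 with 2, and with TMM these medians were -3.45 and -3.37.

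In brain Leu-TAA and Ser-CGA were higher in LAR. All tRNA rows of brain had a median of -0.59, with 45.9% of them lower in LAR. Leu-TAA had a median of 1.35 with 3 of 4 rows higher, and Ser-CGA 1.23 with 2 of 3 rows higher, both also above 0 with TMM scaling (2.52 and 2.39). The SeC row of brain was lower by 1.11, and this was not called with TMM, where it was -0.13. Over the 13 tissues SeC was called lower in 4 and higher in 0, with TMM lower in 2, and without the 11 pools lower in 7. TMM moved the median of all rows by 1.07 in brain, 1.20 in pancreas and 0.57 in liver (log2).

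**Figure D5:**
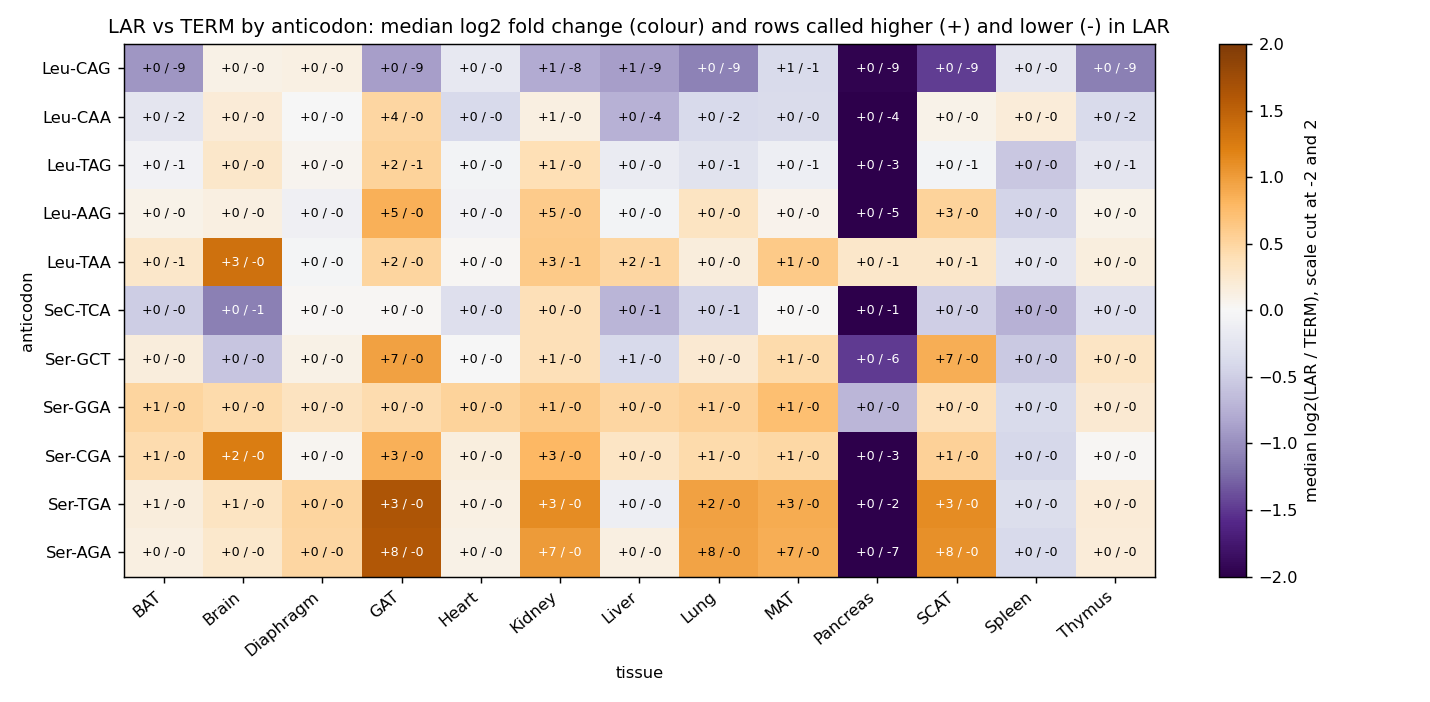
LAR vs. TERM by anticodon (rows) and tissue (columns). Colour gives the median log2 fold change of the rows of an anticodon (orange higher in LAR, purple lower, scale cut at -2 and 2), and the numbers in a cell are rows called higher (+) and lower (-) by edgeR. Leu-CAG is purple with 8 or 9 rows lower in 8 tissues, and Ser-AGA and Ser-TGA are orange in GAT, kidney, lung, MAT and SCAT and dark purple in pancreas.

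Age moved serine in the thymus, a tissue that shrinks with age. On the log2(rpmm + 1) scale the Ser rows of thymus in LAR were 7.20, 9.52 and 11.1 (lowest, median, highest) at 8 months and 7.37, 8.28 and 9.56 at 3 months. The means were 9.30 ± 1.01 and 8.29 ± 0.498 (n = 15 each), a difference of 1.01 (adjusted p = 0.0190, 2-sided permutation test). In TERM, from other mice, they were 8.26, 9.10 and 10.6 (n = 15) against 7.05, 8.16 and 9.01 (n = 13), a difference of 0.92 (adjusted p = 0.00552, permutation test). The groups overlapped in both. Without the 11 pools the differences were 0.90 (adjusted p = 0.132) and 0.85 (adjusted p = 0.0251, exact permutation test). The tRNA content of thymus was 23.2% ± 10.6 at 8 and 17.3% ± 10.0 at 3 months in LAR, and 40.0% ± 15.3 and 35.2% ± 14.6 in TERM, and its part in the difference was not tested. Fewer cells of a type and less RNA per cell cannot be told apart in these tissues.

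By row, edgeR called 28 of 49 members higher at 8 months in thymus and 0 lower, beside 22.1% of all rows. Without the 11 pools it called 28, where 179 of 5269 rows were called over the 13 tissues. The member rows called with all libraries are listed next. These were the 8 Ser-AGA, 7 Ser-GCT and 3 Ser-TGA rows, 2 Ser-CGA rows, the Ser-GGA row, 5 Leu-AAG rows and 2 Leu-TAG rows. tRNA-Ser-AGA-1-1 rose by 1.19 ± 0.21 SE (log2) and tRNA-Ser-GCT-3-1 by 1.04 ± 0.23 SE, with adjusted edgeR p-values of 1.3e-05 and 0.00035. The median of the members was 0.62 and that of all rows 0.37. With TMM, which moved the median of all rows by -0.50, 17 members were higher, 8 of them Ser-AGA and 6 Ser-GCT, and 9 were lower, 8 of them Leu-CAG, beside 34 rows higher and 42 lower of all 407. The median of the Leu-CAG rows was -0.04 without TMM, with none called, and -0.42 with it. In kidney 13 of 48 members were higher at 8 months (40.4% of all rows), SeC among them, and none with TMM or without the 11 pools. In the other 11 tissues edgeR called no member, and in BAT and lung it called 0.735% and 2.23% of all rows. GAT had 29 of 49 members at an unadjusted p under 0.05, with a smallest adjusted p of 0.0505.

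The share of tRNA counts changed with age in spleen of TERM alone among the 24 groups of tissue and protocol with both ages. It was 0.977% ± 0.447 at 8 months (0.231, 0.978 and 1.78%) and 1.93% ± 1.03 at 3 months (0.833, 1.60 and 4.28%, n = 13 each, adjusted p = 0.0138, permutation test). The tRNA content was 20.7% ± 20.9 at 8 and 8.08% ± 3.58 at 3 months, and its part in the share was not tested. On the rpmm scale the medians were 1434 rpmm at 8 and 1268 rpmm at 3 months, and the difference of -0.14 on the log2(rpmm + 1) scale was not called (adjusted p = 0.903, permutation test). The call of the share was lost without the 11 pools and with plate as a term.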

How the data were processed

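The authors sequenced small RNA with the MGIEasy kit, mapped the reads with miRMaster against GRCm39 and deposited read counts per feature and library without normalization. Values of tRNA, rRNA, snRNA, snoRNA, piRNA and lncRNA as deposited are whole counts, and those of miRNA are estimated counts, of which 0.790% carry a fraction and which entered the totals as deposited. Filters inside the mapping tool are not given in the sources used here. The members and lists were chosen with earlier results of these data known. Groups follow the labels.

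From the counts, the share of tRNA counts and rpmm were computed per library, and 1 rpmm was added before log2. Single values were compared by 2-sided permutation tests, exact for groups under 10 where the number of splits allowed and otherwise with 100000 resamples, with Benjamini-Hochberg adjustment over the tissues of a protocol (threshold 0.05). The smallest p these resamples can give is 1e-05. edgeR 4.0.16 in R 4.3.3 fitted quasi-likelihood models per tissue to tRNA rows with at least 5 counts in 10% of the samples of an arm, with the total of the 7 classes as library size and no TMM factor. The arms of 1 protocol formed 1 fit, and LAR vs. TERM and age were terms of a second fit with arm. On simulated counts of liver in FL vs. HGC of LAR (404 rows, 200 of them changed) it recovered 77% of changes of 1 and 99% of changes of 2 on the log2 scale. The simulated rows were drawn independently, while many real rows share counts and few were called, so these percentages need not hold for the real data. DESeq2 1.42.0 was an alternative. Python 3.11.15, numpy 2.4.6, pandas 2.3.3 and matplotlib 3.10.9 were used. Rows named are SeC, the highest row of each anticodon and up to 3 called rows per tissue with the smallest adjusted p in FL vs. HGC; other rows named with a count of 10 or fewer were chosen after their values were seen. Whether mice of the 3 arms that share a number deviate together was checked, and 33 of 76 pairs of tissue and arm had a correlation over 0.1 (median 0.0385), so numbers were not taken as pairs between arms. Pool and plate numbers came from the study's sample list, which does not say at which step they were used. Circular and scaRNA tables were not used. Gene sequences are not reported here.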

Additional observations from a re-analysis of the deposited data

Results flagged for a closer look

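Of 77 groups of 4 to 10 libraries, 21 had a library whose share of tRNA counts stood far from the others of its tissue, arm and protocol. A rate of about 1 in 20 groups was taken for chance. It need not hold for shares, which are skewed to high values (over all libraries median 0.657%, mean 1.06%, highest 8.89%). No excess over chance can therefore be read from the 21. All 21 were the highest of their group, and 10 lay in the 11 pools set aside for miRNA profiles of other tissues. No cause was tested.

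In LAR, with the other libraries of the group in parentheses, BAT of FL replicate 2 held 2.73% (0.287 to 0.760%), where its tRNA content was 6.52% against 19.0 to 36.6%. GAT of FL replicate 1 held 0.950% (0.132 to 0.545%) and GAT of VGC replicate 1 held 6.87% (0.130 to 1.51%). Heart of FL replicate 13 held 4.11% (0.746 to 1.51%) and kidney of FL replicate 3 held 4.91% (0.801 to 1.72%), both with miRNA profiles closest to diaphragm. Liver of FL replicate 4 held 2.51% (0.839 to 1.58%), MAT of HGC replicate 12 held 2.76% (0.192 to 1.39%) and MAT of VGC replicate 2 held 3.49% (0.304 to 1.47%), each closest to pancreas. SCAT of VGC replicate 12 held 2.94% (0.148 to 0.360%), with a profile closest to spleen. Thymus of FL replicate 13 held 1.82% (0.324 to 0.992%) and thymus of VGC replicate 4 held 2.79% (0.458 to 1.23%), both closest to thymus.

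In TERM, diaphragm of VGC replicate 13 held 5.73% (0.318 to 2.79%), GAT of FL replicate 1 held 0.640% (0.185 to 0.359%) and GAT of HGC replicate 4 held 0.353% (0.167 to 0.259%). Kidney of HGC replicate 5 held 1.32% (0.364 to 0.672%) and kidney of VGC replicate 16 held 1.62% (0.254 to 0.903%), with tRNA contents of 5.11% and 10.9% below those of the others. MAT of FL replicate 2 held 2.40% (0.231 to 0.762%), closest to pancreas. SCAT of FL replicate 12 held 0.785% (0.230 to 0.471%), and SCAT of VGC replicate 12 held 2.25% (0.249 to 0.447%) with 11.1% tRNA against 50.7 to 84.9%. Spleen of FL replicate 3 held 3.47% (0.231 to 1.66%), and thymus of FL replicate 11 held 1.54% (0.115 to 0.794%).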

How the results depend on the processing

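For the share in FL vs. HGC of LAR, 2 tissues were called, and 1 without the 11 pools, and 0 with plate as a term, in mice of 3 months or in mice of 8 months alone, and 0 with a replicate block. Samples of the arms share only a number, and the block moved the member calls of edgeR in LAR from 14 to 8, in TERM from 2 to 0 and against VGC from 10 to 0, while tissues of an arm share mice, and with the mouse as a replicate block 2 neighbouring pairs of tissues differed in LAR (3 without it) and 2 in TERM, 1 of them another pair. Against VGC the share gave 0 calls and 1 without the pools, rpmm of LAR 0 and 1, age 1 and 0 (0 also with plate), TERM neighbours 2 and 1, and anticodons 1 and 0. Member calls in FL vs. HGC of LAR were 14 (8 higher and 6 lower in FL, beside 228 calls over all rows). They were 39 with TMM (273 over all rows), 33 with DESeq2 (431), 35 with a rule on medians and Cohen's d (355), 8 with age as a term (213) and 19 with Wilcoxon's test (251), all higher in FL. With plate they were 41, 4 higher and 37 lower (237), and without the pools 49, 18 higher and 31 lower (402). In TERM they were 2 higher in FL (63 over all rows), and 5 with DESeq2, 3 higher and 2 lower (90), 0 with Wilcoxon's test (32), 33 with that rule, 17 higher and 16 lower (231), 0 with age (34), 23 with plate, all lower (140), and 0 without the pools (34). Against VGC they were 10 (94 over all rows), and 22 with TMM (66), 44 with DESeq2 (445), 0 with Wilcoxon's test (3), 71 with the rule (714), 0 with age (38), 26 with plate (252), 19 without the pools (236) and 5 with identical rows once (76). LAR vs. TERM gave 249 (2080 over all rows), and 149 with identical rows once (967 of 2892), which tests fewer rows; age gave 41 (265), and 26 with TMM (92). The cause of the other changes was not tested.

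Libraries were left out 1 at a time in BAT, GAT, kidney, spleen and brain of LAR (122 runs) and in lung, brain and pancreas of TERM (52 runs). The other tissues were not run. This gave 2 to 2 calls of share in LAR, 0 to 0 in TERM and 0 to 0 against VGC, and 0 to 1 of rpmm in LAR and 0 to 0 in TERM. It gave 8 to 53 members in LAR, 0 to 5 in TERM and 9 to 16 against VGC. The rpmm of kidney in FL vs. HGC of LAR turned to 0.13 in mice of 8 months. A denominator with circular and scaRNA counts was not run. Depth limits the rarest rows, such as tRNA-Ser-AGA-3-1, and identical copies share their reads.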
